A study of Homo sapiens with 5 samples.

Results

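The strongly depleted nuclear peaks were the 642 of 80514 deposited SRSF9 eCLIP peaks that lay outside the mitochondrial chromosome and had a log2 ratio of -1 or lower in every library in which they were listed. The 642 peaks lay at 635 distinct positions on hg19, because some positions were listed more than once. They made up 0.798% of the 80413 nuclear peaks. The ratios themselves chose the peaks, so their low level is a description and not a result. SRSF9 is a serine/arginine-rich splicing factor, and eCLIP recovers and sequences RNA fragments that are immunoprecipitated with a protein. All libraries came from HEK 293T, a cell line from human embryonic kidney, and all cells overexpressed SRSF9. In the condition without ADAR2, SRSF9 alone was overexpressed, with 2 libraries. In the condition with ADAR2, an adenosine deaminase that edits double-stranded RNA was overexpressed beside SRSF9, also with 2 libraries. The labels also list 1 input library from cells with both proteins, which had no column of its own in the table. The labels name an antibody against SRSF9 and, in the extraction protocol, beads coupled for MYC. They do not say whether the 2 libraries of a condition were separate cultures, so the spread between them may be technical.

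A log2 ratio of -1 means a signal lower than that of the denominator, which the table does not name. Libraries are called first and second in column order. Read depths are unknown here, and no interval was put on a single ratio. Over all shared peaks outside the set, the second library without ADAR2 had the lowest median ratio, 0.202, against 0.971, 1.32 and 1.06 in the others. The table lists peaks and not gene levels, so the markers of the cell line could not be checked.

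SR proteins such as SRSF9 bind messenger RNA precursors and guide splice site choice. In CLIP experiments, abundant small structured RNAs are commonly recovered with many proteins, and they are prominent in the input RNA against which binding is usually measured. The rule for the set named a pair of such RNAs. RN7SL1 encodes 7SL RNA, the scaffold of the signal recognition particle, which delivers nascent secretory and membrane proteins to the endoplasmic reticulum. RMRP encodes the RNA subunit of RNase MRP, an enzyme that cuts the precursor of ribosomal RNA. RNA polymerase III makes both. Alu repeats, in which most human A-to-I editing takes place, descend from 7SL RNA.

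Both loci held depleted peaks, which the rule had stated in advance, so this is a description and not a finding. No other locus was looked up by name. The transcript of RMRP is shown to place its peaks in the RNA. The sequence is the GENCODE 29 transcript of RMRP (minus strand), written 5′ to 3′ as DNA, with the bases under a depleted peak in capitals. Each peak was placed by its distance from the ends of the hg19 interval of the gene, chr9:35657748-35658015, which has the 268 bases of the transcript. The deposited peaks carry no strand, so it was assumed that they lie on the strand of RMRP.
RMRP: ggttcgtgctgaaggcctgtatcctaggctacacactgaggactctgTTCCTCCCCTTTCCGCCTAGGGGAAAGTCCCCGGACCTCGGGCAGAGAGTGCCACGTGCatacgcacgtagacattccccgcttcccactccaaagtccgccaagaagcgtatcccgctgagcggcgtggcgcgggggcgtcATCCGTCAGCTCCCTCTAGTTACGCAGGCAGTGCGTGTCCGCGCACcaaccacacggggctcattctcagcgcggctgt

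The RN7SL1 peak had the lowest ratio of all 642. It covered chr14:50053318-50053335, within the RN7SL1 interval chr14:50053297-50053596. Its ratios were -10.22 in the first and -9.55 in the second library with ADAR2. It was listed only with ADAR2, and no other nuclear peak of either condition touched the RN7SL1 interval. RN7SL1 has near-identical copies in the genome, and the sources used here do not say how the authors placed reads that fit several copies, so the value at this locus is uncertain.

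RMRP held 2 depleted positions, both with close values in the libraries of a condition. The position nearer the 5′ end, chr9:35657910-35657968, covered transcript positions 48 to 106 and was shared by the conditions. It was listed on 3 rows that differed only in their values without ADAR2. These were -1.98, -2.38 and -2.38 in the first library and -2.22, -2.22 and -2.62 in the second. All 3 rows had -4.46 and -4.26 with ADAR2. Averaged over its rows, the position had a mean of -2.30 without ADAR2 (SD 0.074, n = 2) and a mean of -4.36 (SD 0.14, n = 2) when ADAR2 was present. The 2 libraries with ADAR2 lay below both libraries without it. The other position, chr9:35657781-35657826, covered transcript positions 190 to 235 and was listed only without ADAR2, at -2.88 and -3.02. An unlisted stretch of 83 bases separated the positions, and together they covered 39.2% of the transcript. The peaks along the RMRP transcript are plotted with their ratios.

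**Figure D1:**
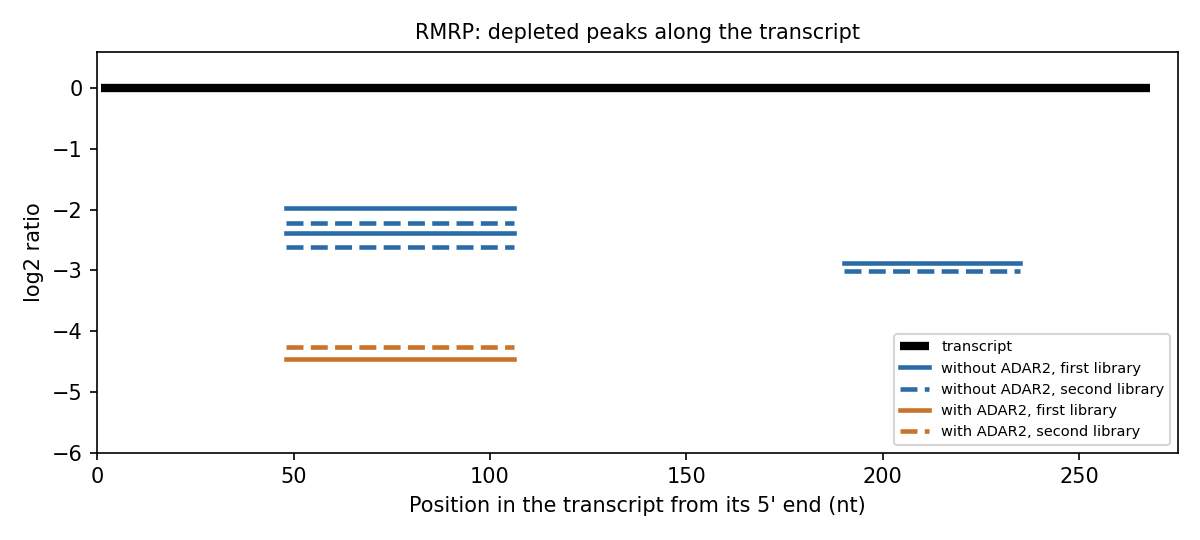
Depleted peaks along the RMRP transcript. The x axis is the position in the transcript in nt from its 5′ end, the y axis the authors' log2 ratio. Each coloured line is a peak in 1 library, solid for the first and dashed for the second, blue without and orange with ADAR2, and the black bar marks the transcript. The shared peak lies lower with ADAR2 than without.

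Most of the depleted peaks were found only with ADAR2, as were most peaks of the table. With ADAR2 only there were 548, which is 0.762% (95% Wilson interval 0.701 to 0.828) of the nuclear peaks of that class. A further 45 were found only without ADAR2, 0.949% (0.710 to 1.27) of that class, and 49 rows at 42 positions were shared, 1.31% (0.990 to 1.72). These intervals cover counting error over peaks only, and a shared peak had to pass in 4 libraries where the others had to pass in 2. Of the peaks below 0 in every library, the depleted peaks were 10.3% of those found only with ADAR2, 4.09% of those found only without it and 25.5% of the shared ones. On the mitochondrial chromosome, which the rule left out, 51 of 101 peaks met the same threshold.

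Most members lay not far below the threshold, and a small number lay far below it. The mean ratio was between -2 and -1 in 430 of the 642 peaks and -4 or lower in 45. Among peaks found only with ADAR2, the first library ranged from -10.22 to -1.001 with a median of -1.52, and the second from -9.55 to -1.004 with a median of -1.53. The shared peaks were lower, with medians of -3.40 and -3.33 with ADAR2 and of -2.15 and -2.47 without it. The peaks found only without ADAR2 had medians of -1.34 and -1.83, and none of the 45 reached -4 in either library. In 98 members the highest ratio lay between -1.1 and -1, and 235 nuclear peaks outside the set had theirs between -1 and -0.9. The members nearest the threshold were chr1:150601909-150601918, chr19:5246047-5246053 and chr2:219460310-219460349, each at -1.001 in its higher library, followed by chr1:45116926-45116979 and chr4:56265491-56265516 at -1.004. The nearest peaks outside it were chr15:82668589-82668635 and chrX:24095378-24095424, each at -0.999, followed by chrX:154003329-154003333 at -0.995 and by chr17:49244190-49244213 and chr20:23618500-23618561 at -0.994. The set thus has no gap at its edge.

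The libraries of a condition differed less with ADAR2 than without it, among the members and among other nuclear peaks alike. The median absolute difference was 0.272 with and 0.381 without ADAR2 in the members, and 0.424 and 0.849 in the other peaks. With ADAR2 the first library minus the second had a median of 0.0090 (quartiles -0.25 and 0.29) over 597 peaks, and 72.4% of the peaks differed by at most 0.5 and 6.37% by more than 1. Without ADAR2 the median was 0.21 (-0.15 and 0.65) over 94 peaks, and 54.3% differed by at most 0.5 and 19.1% by more than 1. In the nuclear peaks outside the set the first library without ADAR2 exceeded the second by a median of 0.85. Across peaks the Pearson correlation between libraries was 0.911 with ADAR2 (n = 597) and 0.650 without (n = 94). By rank the gap was smaller, with Spearman correlations of 0.717 and 0.653. The ratios with ADAR2 also reached lower values, and Pearson correlation depends on such extremes. These are descriptions: the peaks were selected to be low in both libraries, libraries may share a denominator, and neighbouring peaks can hold the same value. The plot of first against second library shows both conditions.

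**Figure D2:**
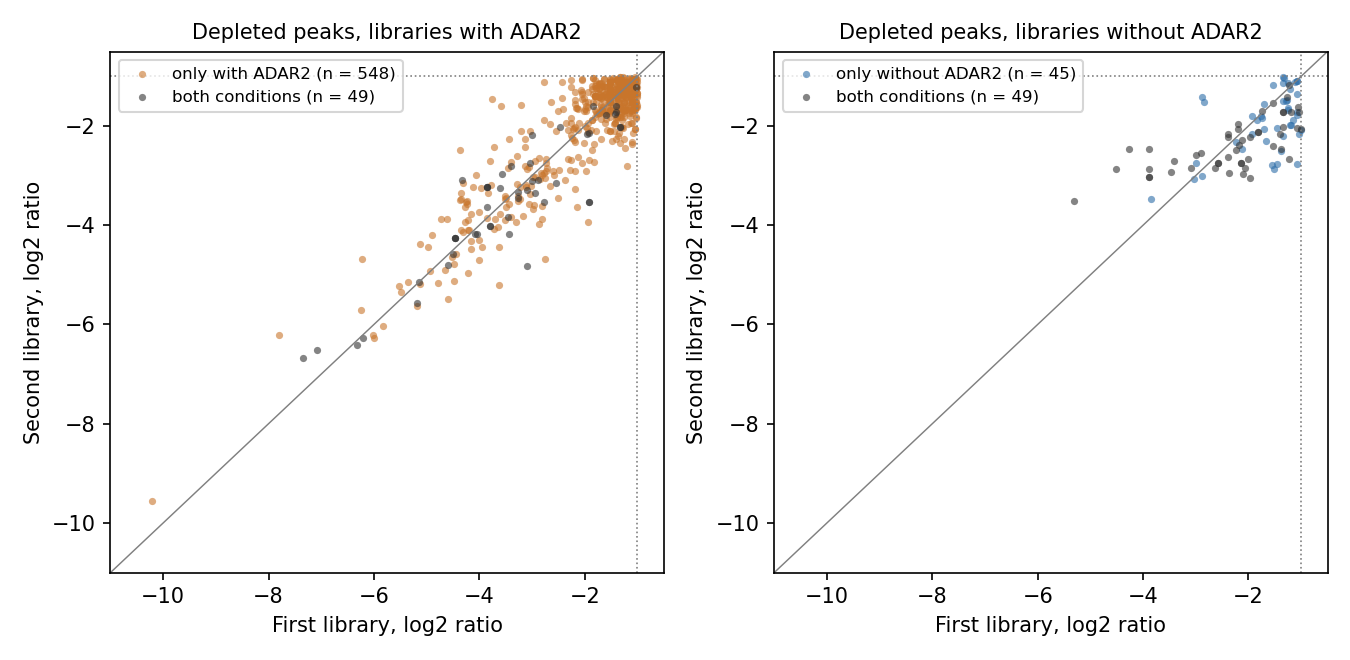
Log2 ratio of each depleted peak in the first library (x axis) against the second library (y axis) of the condition with ADAR2 (left) and without (right). Each point is a peak, coloured by whether it was found in 1 condition or both; the solid line marks equal values and the dotted lines the threshold of -1. Points with ADAR2 reach -10.22, and those without reach -5.31.

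The 10 lowest peaks found only with ADAR2 were spread over several chromosomes. After RN7SL1, the next was chr7:55955550-55955593, at -7.79 in the first and -6.22 in the second library. On chr3:179879745-179879751 the ratios were -5.99 and -6.28, on chr11:9450385-9450407 they were -6.02 and -6.21, and on chr1:235291148-235291153 they were -6.25 and -5.71. Both libraries were thus far below the threshold in each of them. The peak on chrX:68892284-68892439, at -5.82 and -6.03, was with 156 nt the widest of the 548. As on chr7:55955550-55955593, the libraries differed by more than 1 on chr7:148638628-148638651, with -6.23 and -4.68. The list closed with chr12:104519025-104519067, at -5.18 and -5.62, and a pair of peaks on chromosome 1, chr1:28833877-28833916 at -5.49 and -5.35 and chr1:28835150-28835218 at -5.52 and -5.23. These were 2 of the 4 members in the window of 100 kb that starts at 28800001.

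The lowest peaks found only without ADAR2 were less deep. On chr2:118847164-118847185 the ratios were -3.85 and -3.46, and on chr14:78198890-78198919 they were -3.04 and -3.07. The RMRP peak at transcript positions 190 to 235 came next. On chr11:62609196-62609242 the ratios were -3.002 and -2.74, and the base at chr14:20811428 had -2.13 and -2.47. Both lay within 100 nt of shared members, on chr11:62609096-62609193 and chr14:20811449-20811514. Of the remaining 5 lowest, chr9:139620673-139620696 had close values, -2.23 and -2.33. The other four differed between the libraries by more than 1, as on chr1:45196776-45196786 with -2.84 and -1.52, or on chr4:119606567-119606605 with -1.51 and -2.87.

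The shared positions allowed the comparison of conditions that the study was designed for, and most of them had lower ratios with ADAR2 than without. Over the 42 positions, with rows of identical coordinates averaged, the median difference (with minus without ADAR2) was -0.99 on the log2 scale (quartiles -1.84 and -0.30), and 36 positions were below 0. Over all 3645 shared regions of the table the median difference was 0.62, and 26.4% were below 0. In 29 of the 42 positions both libraries with ADAR2 lay below both without, which was the case in 9.22% of all shared regions. In 3 of the 42 both lay above, against 49.9%, and in 10 the conditions overlapped. By limma on all shared regions with Benjamini-Hochberg adjustment, 16 positions were lower with ADAR2 at an adjusted p under 0.05 and 1 was higher, where 2.41% and 18.5% of all shared regions were called. The members were chosen on these same ratios, so the counts describe them and do not test them. In a limma fit without 1 library, the spread comes from the other condition alone, and the lone library is assumed to vary like it. With the first or the second library without ADAR2 left out, such a fit called 0 of all 3645 regions (0%) in either direction and so 0 of the 42, which says nothing of the members. At an unadjusted p under 0.05, 15 and 20 of the 42 were lower, against 65 and 364 of the 3645. With the first library with ADAR2 left out, 4 of the 42 were called lower, where 11 of the 3645 were (0.302%), and with the second left out 5 of the 42, where 22 of the 3645 were (0.604%). Higher regions numbered 70 (1.92%) and 199 (5.46%) of the 3645 in these fits, with 0 among the 42. In the 4 fits the median difference of the 42 positions was -0.87, -1.21, -1.11 and -0.92. After subtracting from each library its median over the shared regions, 27 were lower and 0 higher, where 10.9% and 12.6% of all shared regions were called, and the median was -1.58.

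The difference is given next by depth, where depth is the mean ratio over all libraries and so includes the values with ADAR2 themselves. Of the 42, the 15 with a mean ratio of -3 or lower had a median difference of -2.06, and all 15 were below 0. The 27 less depleted positions had a median of -0.65. Nuclear shared regions that were below 0 in all libraries but did not reach the threshold numbered 138, and their median difference was -0.0082. Shared mitochondrial regions below 0 in all libraries numbered 26, with a median of -0.67. A region that is very low in either condition counts as deep, so these medians describe the positions and show no relation with depth. Deep positions with a small difference also occurred, as on chr14:20811516-20811520 with a mean ratio of -3.60 and a difference of -0.29, and on chr14:20811449-20811514 with -3.44 and -0.20. The ratios with ADAR2 also spread more widely among the members, with an SD across the 42 positions of 1.52 and 1.42, against 1.02 and 0.506 without ADAR2. The part of this spread in the difference was not tested.

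The position that fell most was chr12:50850476-50850518. Its libraries stood at -1.97 and -3.04 without ADAR2 and at -7.07 and -6.51 when ADAR2 was present, with no overlap. By limma the difference was -4.29 with an SE of 0.59 (adjusted p = 1.81e-10). On chr3:179879712-179879742 the ratios were -3.08 and -2.85 without and -6.20 and -6.28 with ADAR2, a difference of -3.28 (limma adjusted p = 2.88e-06). This position lies directly beside the peak on chr3:179879745-179879751 that was listed only with ADAR2 at similar depth. On chr10:328018-328065 the ratios were -1.34 and -2.02 without and -4.51 and -4.58 with, a difference of -2.87 (limma adjusted p = 5.67e-05). Next came chr6:4428253-4428307 and chr3:150905884-150905970, with differences of -2.68 and -2.65. In all 5 the conditions did not overlap. limma gave the same SE of 0.591 to every region, so these p-values do not use the spread of the position itself. With each library centred, the limma adjusted p of chr12:50850476-50850518 was 9.33e-07. All members were chosen on these same ratios, and these 5 also for their large differences. The p-values of single positions, here and below, thus describe the positions and do not test them. When either library without ADAR2 was left out, fits in which no region passed, the limma adjusted p of chr12:50850476-50850518 was 0.0607 (the first) or 0.0867 (the second).

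The shared position with the lowest mean was chr14:50320559-50320592, at -5.31 and -3.52 without ADAR2 and -7.35 and -6.69 with it. Its difference was -2.61 (limma adjusted p = 0.000299), and the libraries without ADAR2 differed from each other by more than those with it. The RMRP position from 35657910 to 35657968 fell by 2.06 on the log2 scale (limma adjusted p = 0.00556). Leaving out 1 library changed that difference to between -2.16 and -1.96, with limma adjusted p from 0.0616 to 0.212. On chr15:65588460-65588495 the ratios were -3.41 and -2.70 without and -4.59 and -4.81 with ADAR2, a difference of -1.64 (limma adjusted p = 0.0322).

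Of the 42 shared positions, 6 had a difference above 0, and 1 of them passed the threshold by limma. On chr1:28975132-28975169 its libraries stood at -3.47 and -2.92 without ADAR2 and at -1.41 and -1.59 in its presence. The difference was 1.70, with adjusted p = 0.0258 by limma and 0.0797 once each library was centred, and it did not pass in any fit without 1 library. A neighbouring shared position, chr1:28975207-28975210, had a difference of -0.38 (limma adjusted p = 0.692). The next largest differences were 0.68 on chr4:53578787-53578878, 0.67 on chr8:33371031-33371085 and 0.33 on chr7:75677434-75677529, none past the threshold by limma. The fifth, chr11:62609096-62609193, had -3.002 and -2.59 without and -3.001 and -2.19 with ADAR2, so the conditions overlapped there. All 42 positions are plotted in the order of their difference.

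**Figure D3:**
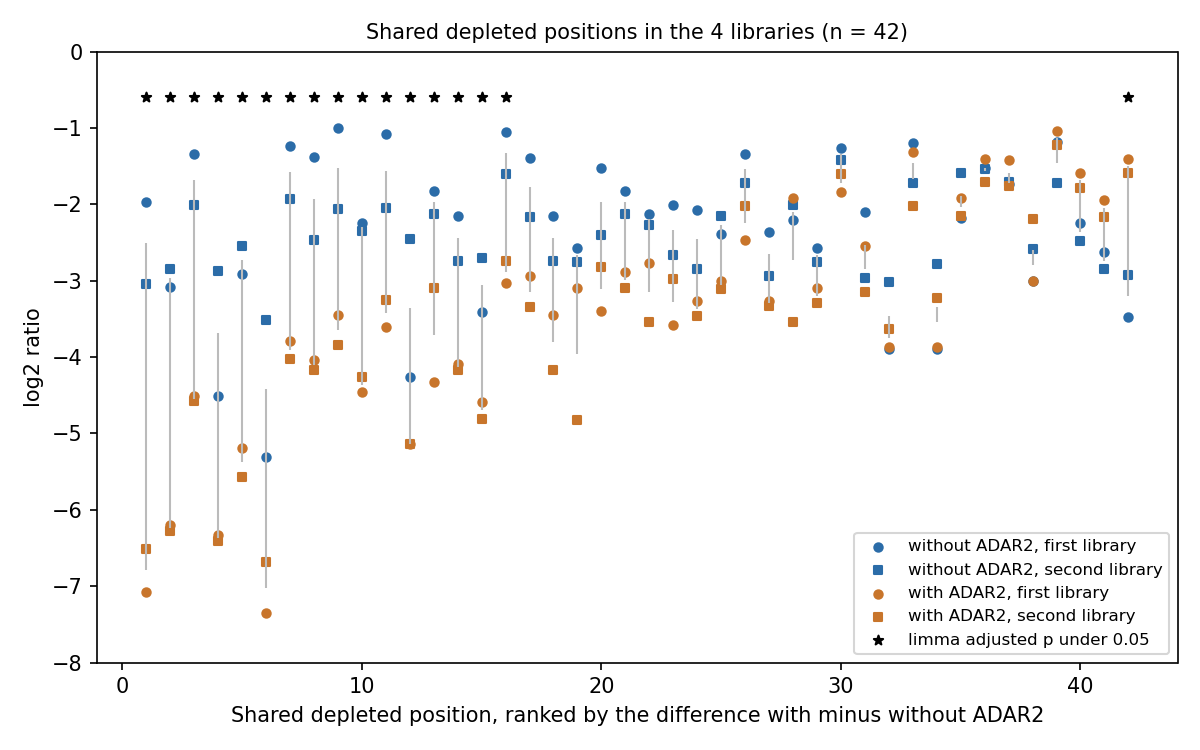
Log2 ratio (y axis) of the 42 shared depleted positions in the 4 libraries, ranked along the x axis by the difference with minus without ADAR2. Blue points are libraries without and orange points with ADAR2, circles the first and squares the second library; grey lines join the means of the conditions and stars mark a limma adjusted p under 0.05. The 16 starred positions on the left are lower with ADAR2 and the 1 on the right is higher. The positions were chosen on these ratios, so the stars describe them and do not test them.

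Some depleted peaks sat near each other, but most stood alone. Of the 635 positions, 146 had another depleted position within 1 kb, which is 22.99% (95% Wilson interval 19.9 to 26.4). These 146 lay in 59 groups and are not independent, so the interval is too narrow. Of the 79642 other nuclear positions, 595 had a depleted position within 1 kb, 0.747%. Joined at 1 kb, the members formed 548 groups, of which 489 held 1 position, 41 held 2 and 18 held 3 or more. Some members that lay within 1 kb of each other had an identical value in a library. This was so for 13 of 24 grouped positions in the first library without ADAR2 and 10 of 24 in the second. With ADAR2 it was so for 26 and 36 of 130. Identical values were not counted among other peaks.

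The group with most positions was on chromosome 16, where 6 peaks found only with ADAR2 lay between 2012417 and 2013131. They ranged from -4.61 to -2.81 in the first library and from -5.12 to -3.87 in the second. Within the same 715 nt lay 4 peaks outside the set, with mean ratios from -0.062 to 0.495. Depleted peaks and peaks near 0 were thus listed within the same short stretch.

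A compact group on chr14:20811240-20811520 held 5 positions on 8 rows within 281 nt. Its 4 shared positions ranged from -3.90 to -2.12 in the first and from -3.02 to -1.96 in the second library without ADAR2, and from -3.86 to -1.92 and from -3.63 to -3.23 with it. None of the 4 was called by limma, with differences between -0.96 and -0.20. On chr11:93463762-93465648 there were 5 peaks found only with ADAR2. They ran from -3.52 and -3.42 at chr11:93463762-93463785 to -1.68 and -1.57 at chr11:93464670-93464718, so the members of a group were not equally low.

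The remaining groups of 4 differed in depth. On chr1:28906346-28907564 a shared position at -1.39 and -2.17 without and -2.94 and -3.35 with ADAR2 stood beside 3 peaks found only with ADAR2 that reached -4.35 and -4.45. A pair of groups on chromosome X, from 73062509 to 73063732 and from 73065015 to 73065620, stayed close to the threshold, with all values between -1.79 and -1.04. Together with 1 further member they gave 9 of the 94 peaks of their window of 100 kb, which starts at 73000001. Only a window on chromosome 10, from 96300001 to 96400000, held as many, 9 of 56. The share was highest among windows with at least 4 members on chromosome 1 from 28900001 to 29000000, with 8 of 16 peaks.

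Peaks beside a depleted position were low more often than peaks elsewhere, though most were above 0. Of the 595 other positions within 1 kb, 24.5% (95% Wilson interval 21.3 to 28.2) were below 0 in every library and 71.9% (68.2 to 75.4) above 0 in every library. Over all other nuclear positions these shares were 7.46% and 91.4%. These figures pool the classes, which were mixed differently near depleted positions. By class, the share below 0 within 1 kb was 23.8% for peaks found only with ADAR2, against 6.65% over all others. It was 40.8% against 22.5% for those found only without ADAR2, and 14.5% against 3.86% for shared ones. Within 100 nt of a depleted position 36 of 72 were below 0 (Wilson interval of the share 38.7% to 61.3%). Of the depleted positions, 137 of 635 had a peak above 1 in every library within 1 kb, a count that was not made for other positions. Of the 595 neighbours, 23.7% were above 1 in every library, against 39.7% of all other nuclear positions. Neighbouring rows can derive from overlapping calls, and the part of this in the closeness was not tested. Neighbouring positions are not independent, so the intervals given here are too narrow. The plot of neighbours by distance shows each pair.

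**Figure D4:**
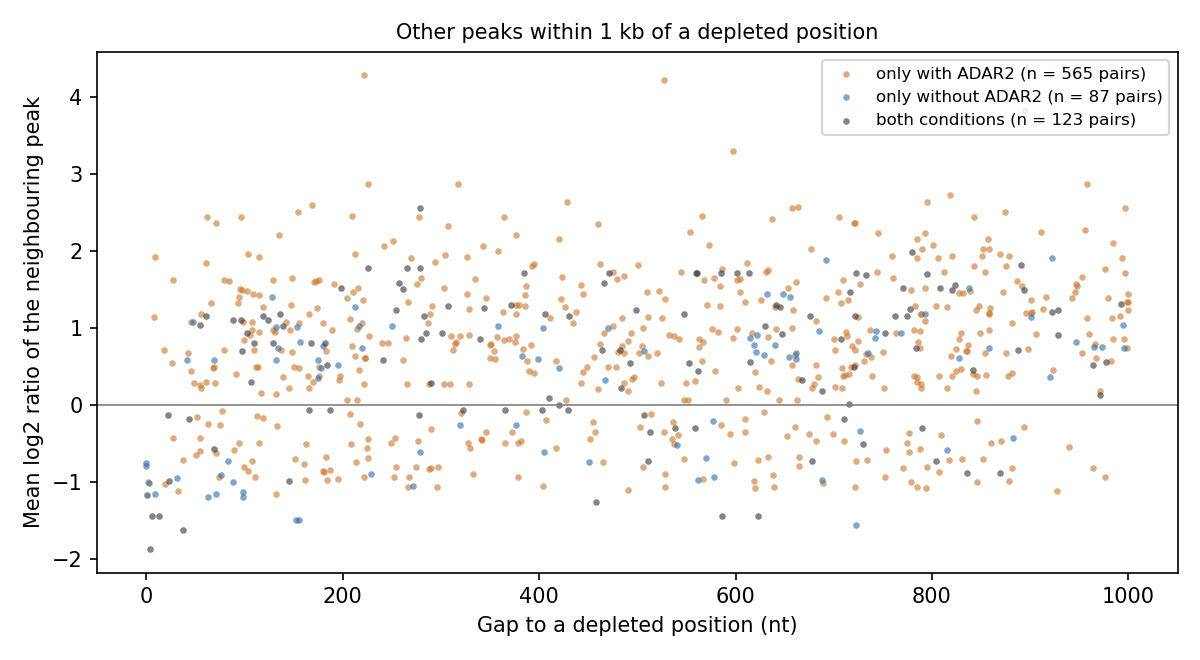
Mean log2 ratio (y axis) of each other nuclear peak within 1 kb of a depleted position, against the gap between them in nt (x axis). Each point is a pair of a depleted position and a neighbour, coloured by the class of the neighbour. Points lie on both sides of 0 at all gaps, and 36 of the 72 neighbours within 100 nt are below 0 in every library.

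The depleted peaks were close in width to other peaks of their class, and slightly narrower among those found only with ADAR2. Those found only with ADAR2 had a median width of 29 nt (quartiles 19 and 44), against 34 nt (20 and 49) for the other nuclear peaks of that class. Those found only without ADAR2 had a median of 31 nt, against 32 nt, and shared ones 55 nt, against 51 nt. Of all members, 72 were at most 10 nt wide, 11.2%, against 9.96% of the other nuclear peaks. Members wider than 100 nt made up 2.34%, against 2.14%. Among those found only with ADAR2, the 39 with a mean of -4 or lower had a median width of 33 nt and the 390 with a mean between -2 and -1 one of 29 nt.

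The members lay on all 23 nuclear chromosomes other than Y. Chromosome 1 held most, 102, which is 15.9% (95% Wilson interval 13.3 to 18.9) of the members, and it held 12.02% of nuclear peaks. The share of a chromosome's peaks that were depleted was highest on chromosome 20, with 30 of 2012, 1.49% (1.05 to 2.12), and chromosome X, with 38 of 2604, 1.46% (1.07 to 1.997). It was lowest on chromosome 21, with 4 of 1195, 0.335% (0.130 to 0.857), and chromosome 10, with 15 of 3210, 0.467% (0.283 to 0.770). The overall share was 0.798%. Neighbouring members are not independent, so the intervals are too narrow, and no test was made. Chromosome Y had 2 peaks and no member.

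**Figure D5:**
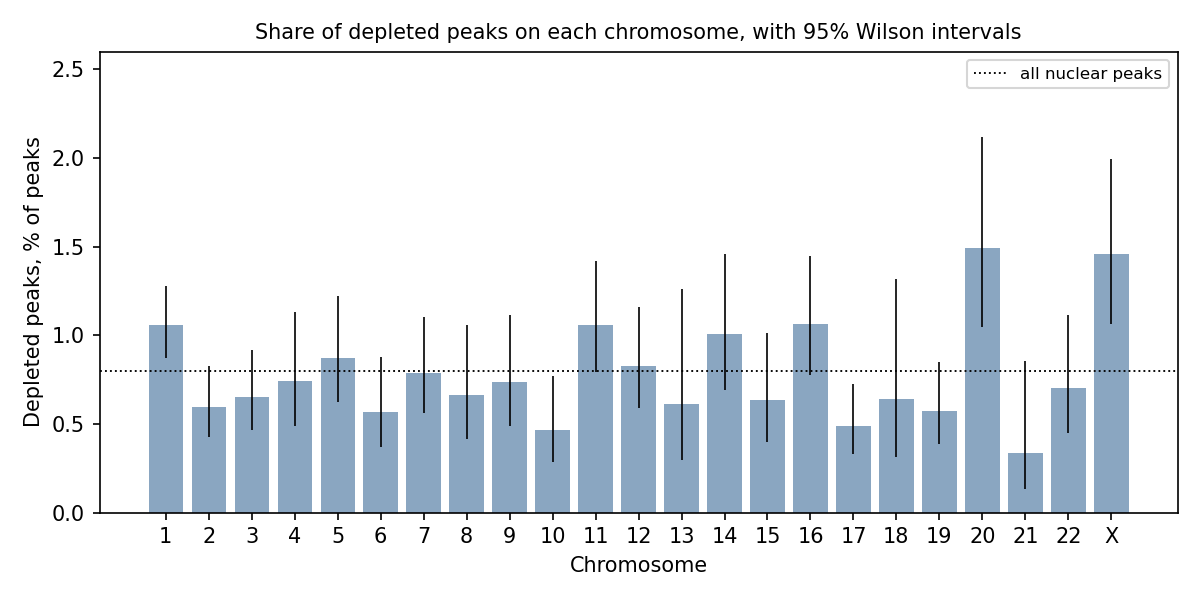
Depleted peaks as a percentage of the nuclear peaks of each chromosome (y axis, bars starting at 0) by chromosome (x axis). Error bars are 95% Wilson intervals over peaks, and the dotted line is the share over all nuclear peaks, 0.798%. Chromosomes 20 and X stand highest, at 1.49% and 1.46%.

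Several ratios recurred exactly at different positions of the set. Recurrence was not counted in other peaks, so these counts do not show a trait particular to the members. In the first library with ADAR2, 39 of 590 positions had the value -1.516, and in the second 33 of 590 had -1.162. In the first library without ADAR2, 7 of 87 positions had -1.079, and the 87 positions held 59 distinct values. Recurring values limit how finely members close to the threshold can be compared. Of the rows of the second library without ADAR2, 33.0% were given to more than 3 decimals, and 0% of those of the first were.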

How the data were processed

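The deposited table lists 80514 peaks of the 4 eCLIP libraries with no header, strand, gene name or read count. The authors deposited log2 ratios, and hg19 is named per the submitters' processing notes. The sources used here give no aligner, peak caller, threshold or denominator. A pair of zeros marks a condition without the peak, and the class of each row assigned the column pairs to the conditions. Members were all nuclear rows with every listed value at -1 or lower. The members, lists and rules were chosen with earlier results of these data known.

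Positions were converted to count from 1. For the comparison of conditions, rows of the same coordinates were averaged, and the resulting 3645 shared regions were fitted with limma 3.58.1 in R 4.3.3, 2 libraries against 2, with Benjamini-Hochberg adjustment over all regions. On simulated data with 200 of 3645 regions changed, it recovered 33 of 50 regions lowered by 2 and 50 of 50 lowered by 4. It also called 7 of 3445 unchanged regions. The simulated noise was independent and equal for all regions, with no offset between libraries. The deposited ratios do have such offsets, so the recovery in them may differ. Other quantities are counts, medians and 95% Wilson intervals from Python 3.11.15. Regions were named by a rule: those in RN7SL1 and RMRP, the 10 lowest of each class, the largest groups within 1 kb, 5 on each side of the threshold, and the shared positions with extreme differences. The sequence of RN7SL1 is not reported here. Genes of the other positions, and their sequences, were not analysed here, because the annotation at hand is on GRCh38. Alternatives covered the threshold, repeated rows, centring, distances and each library left out.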

Additional observations from a re-analysis of the deposited data

How the results depend on the processing

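The size of the set follows its definition. With a threshold of -2 it held 166 peaks and with -0.5 it held 2268, and with each library centred on its median it held 7211. With the rule applied without 1 library in turn it held 656 to 1186 peaks. Of the 42 shared positions, 0 to 5 were lower and 0 higher with ADAR2 in the limma fits without 1 library, in which 0, 0, 11 and 22 of all 3645 regions were lower and 0, 0, 70 and 199 higher, so fewer calls were made everywhere. With each library centred 27 of the 42 were lower and 0 higher. The median difference stayed between -1.58 and -0.87 in all alternatives. They all kept the same 42 positions, which were chosen on the uncentred ratios of all libraries, and centring shifts every difference equally. The narrow range is thus a description and not a test. With a threshold of -2, the median width of members found only with ADAR2 was 33 nt, and 37.4% of positions had another member within 1 kb. With a distance of 100 nt and of 10 kb, 15.1% and 33.9% had one. No paired analysis was possible because the columns carry no replicate numbers. The depth of the libraries is unknown, which limits what a single ratio can show.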
